A study of Mus musculus with 6 samples.

Results

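A set of 8 genes that Schwann cells and other myelinating glia use were followed in skeletal muscle: Mbp, Pmp22, Prx, Mag, S100b, Sox10, Ncmap and Gpr17. They were taken by their symbols, with earlier results of these data known, so that their levels could be read as an index of how much nerve each muscle sample held. All 8 symbols were found among the 55416 genes of the count table. The RNA came from the tibialis anterior (TA) muscle of the mouse, a fast muscle at the front of the lower leg, at an age of 24 months in both genotypes. There were 3 libraries from WT mice and 3 from SELENOW KO mice, in which exon 4 of Selenow, the gene of the small selenium-containing protein SELENOW, is deleted, and the methods name no tissue-restricted Cre or promoter. The labels number the libraries of a genotype 1 to 3 and state natural aging as the only treatment.

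A muscle is entered by its motor nerve, whose branches run between the fibers as bundles of axons. Schwann cells wrap the larger axons in myelin and stay around the smaller ones without making it, and terminal Schwann cells cap the nerve endings at the neuromuscular junction. Compact myelin is the stack of glial membrane held together by proteins such as PMP22 and MBP, whereas Schwann cell cytoplasm remains in the non-compact parts, where MAG and periaxin act. The transcription factor SOX10 defines the lineage and, with EGR2, switches on the myelin genes. Oligodendrocytes make the myelin of the brain and spinal cord with partly the same genes, and GPR17 is best known from their precursors. Muscle fibers make up most of a muscle, so transcripts of its nerve are expected to be scarce. In bulk RNA, fewer Schwann cells and less RNA per Schwann cell cannot be told apart.

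The count table held 25351976 to 29111213 counts per library. Mitochondrially encoded genes took 29.1% to 37.3% of the counts in WT and 35.4% to 40.3% in KO. A level is given as CPM, a gene's share of the counts in its library, scaled by edgeR's TMM factors, and 3 counts, taken here as the floor, were worth 0.103 to 0.118 CPM of the unscaled library total. As a check for skeletal muscle, 8 fast muscle fiber genes, Myh4 and Tnnt3 among them, summed to between 79007 and 103471 CPM in every library. Such genes cannot tell the TA from another fast muscle. The targeted gene had 268, 245 and 219 CPM in WT and 193, 212 and 210 CPM in KO. The genotypes did not overlap for Selenow, which was lower in KO, but the log2 fold change of -0.25 (standard error 0.14) had an adjusted p of 0.604 in edgeR's quasi-likelihood test, and a count over the whole gene says little about 1 deleted exon. Of 15623 genes tested, 836 had an unadjusted p under 0.05 together with a fold change over 1.5 or under 0.7, the thresholds of the study. After Benjamini-Hochberg adjustment edgeR's quasi-likelihood test left 0 genes under 0.05 (the smallest adjusted p was 0.0588, and 1545 genes had an unadjusted p under 0.05), whereas DESeq2 called 45.

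All 8 Schwann cell and myelin genes had at least 1 count in every library, at low levels. Gpr17 was the only one of them past the study's thresholds, at about the same level in all 3 KO libraries and higher there than in any WT library. The other 7 genes did not separate the genotypes. Of these 7, 6 (all but Pmp22) had their highest level in the same library, KO replicate 3, and among the KO libraries Pmp22 was highest there too. Only Mbp, Pmp22, Prx and Gpr17 had enough counts to pass edgeR's filter and be tested, and Mag, S100b, Sox10 and Ncmap are described by their counts.

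**Figure D1:**
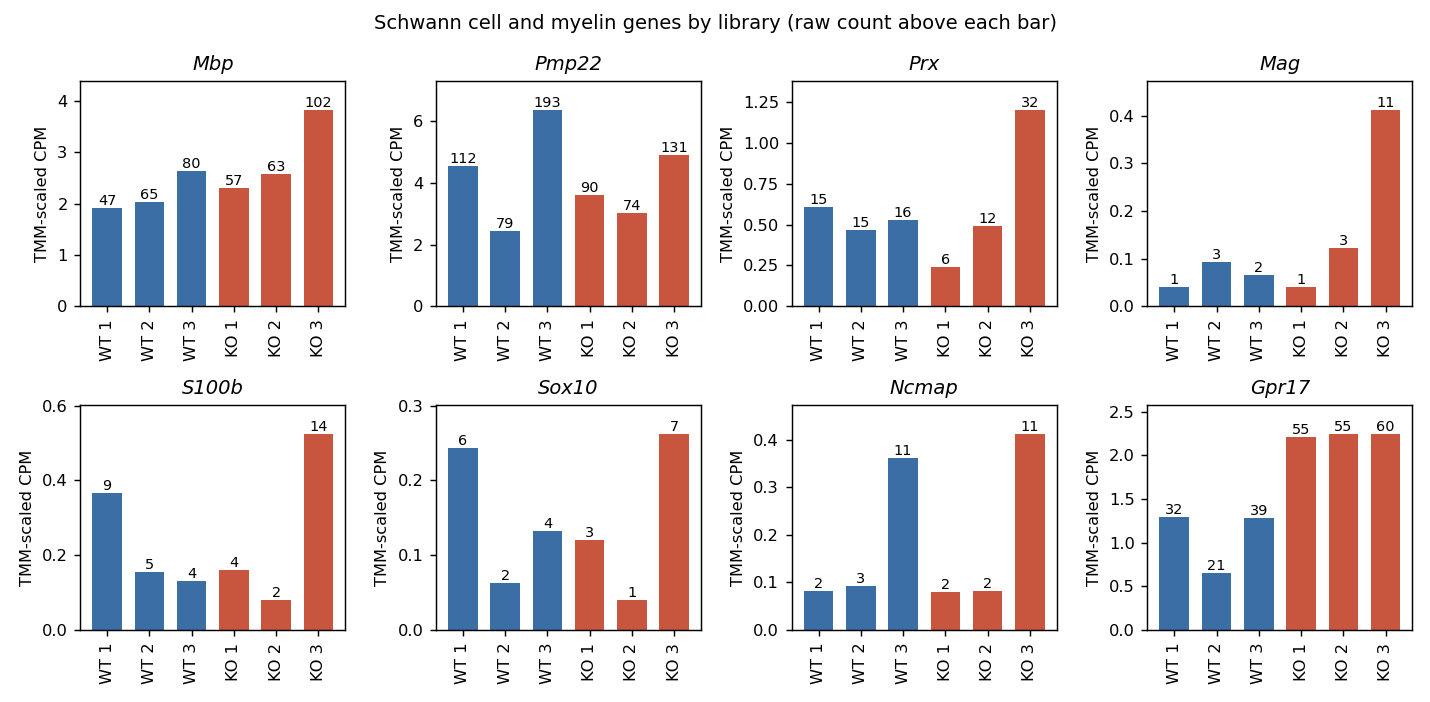
Level of each Schwann cell and myelin gene in the 3 WT (blue) and 3 KO (red) libraries; the vertical axis is TMM-scaled CPM, and the number above each bar is the raw count. KO replicate 3 has the highest bar for every gene except Pmp22, and only Gpr17 has all KO bars above all WT bars.

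Levels of different genes were compared per kilobase of exon, as CPM per kilobase averaged over the 6 libraries. Pmp22 was highest at 1.76 CPM per kilobase, and its lowest library (1.04) was above the highest library of each of the other 7 genes. Gpr17 followed with 0.319 and Mbp with 0.300, and their ranges over the libraries overlapped. S100b had 0.159, Prx 0.104 and Ncmap 0.0831 CPM per kilobase. The lowest were Sox10 with 0.0470 and Mag with 0.0317. Below Pmp22, each gene overlapped its neighbors in this order, so neighbors could not be ranked, but some genes further apart did not overlap. The lowest Mbp library (0.225) was above the highest of Prx (0.211), Ncmap (0.185), Sox10 (0.0858) and Mag (0.101). The lowest Gpr17 library (0.126) was above the highest of Sox10 and Mag.

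Promoter sequence was read for the genes of the 8 that the sequence table held. The sequences are from RefSeq, assembly GRCm38.p6, and cover 250 bases before to 50 bases after an annotated gene start. The table held 11 such windows for 5 of the 8 genes, Prx, Mag, S100b, Pmp22 and Ncmap. One window each is shown for 3 of the genes that were highest in KO replicate 3, namely for Prx, which spans chr7:27499074-27499373 on the plus strand, for Mag, at chr7:30914814-30915113 on the minus strand, and for S100b, at chr10:76253586-76253885 on the plus strand. Capitals mark a SOX core, searched as ACAAAG or ACAATG on both strands, and all other bases are in lower case.
Prx: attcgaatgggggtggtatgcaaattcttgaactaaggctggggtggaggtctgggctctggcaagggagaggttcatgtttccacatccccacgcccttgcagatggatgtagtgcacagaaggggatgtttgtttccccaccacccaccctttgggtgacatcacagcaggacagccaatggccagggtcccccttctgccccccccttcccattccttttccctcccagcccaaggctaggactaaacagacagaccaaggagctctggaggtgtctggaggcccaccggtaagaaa
Mag: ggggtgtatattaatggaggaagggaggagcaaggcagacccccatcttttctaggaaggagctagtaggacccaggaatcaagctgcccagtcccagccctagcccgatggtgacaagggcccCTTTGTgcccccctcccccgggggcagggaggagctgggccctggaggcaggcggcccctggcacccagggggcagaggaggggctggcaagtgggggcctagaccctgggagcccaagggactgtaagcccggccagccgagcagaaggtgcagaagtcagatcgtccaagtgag
S100b: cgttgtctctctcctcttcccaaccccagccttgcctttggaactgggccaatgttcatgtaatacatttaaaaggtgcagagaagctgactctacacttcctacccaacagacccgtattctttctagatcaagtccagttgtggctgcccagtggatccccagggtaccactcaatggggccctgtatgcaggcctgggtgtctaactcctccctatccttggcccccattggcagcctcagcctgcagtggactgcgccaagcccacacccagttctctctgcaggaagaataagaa
The Mag window holds 1 SOX core, which reads on the opposite strand and begins 126 bases before the gene start. Of the 11 windows, 2 held a SOX core, both of them overlapping windows of Mag, against 28.6% of all 32851 windows of the table. The EGR site GCGNGGGCG, searched on both strands, was in 0 of the 11 and in 5.55% of all windows. A match is a run of letters and not a shown binding site, and its absence says only that these letters are not in this window.

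Of the compact myelin genes, Mbp encodes myelin basic protein, which draws the inner faces of the myelin membrane together. Its level was 1.91, 2.02 and 2.63 CPM in the WT libraries, here and below in the order of their numbers, and 2.30, 2.57 and 3.82 CPM in the KO libraries. The groups overlapped, and KO replicate 3 was the highest library. The means were 2.19 ± 0.391 CPM in WT and 2.89 ± 0.810 in KO (SD, n = 3). The log2 fold change was 0.40 (95% interval -0.16 to 0.96, adjusted p = 0.641 in edgeR's quasi-likelihood test), so neither no difference nor an increase past 1.5-fold lay outside the interval.

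Pmp22 encodes a membrane protein of compact myelin, the gene whose duplication causes the commonest form of Charcot-Marie-Tooth neuropathy, and fibroblasts and other cells also transcribe it. It had 4.54, 2.46 and 6.36 CPM in WT and 3.63, 3.02 and 4.90 CPM in KO. Its highest and its lowest library were both WT, replicate 3 and replicate 2, and the KO libraries lay between them. The log2 fold change was -0.21 (95% interval -0.95 to 0.54, adjusted p = 0.869 in edgeR's quasi-likelihood test), and without WT replicate 3 it was 0.15. That library was also the highest for 8 of 8 fibroblast genes (Col1a1, Dcn, Lum and others), and for 2539 of all 15623 tested genes. The 8 fibroblast genes summed to 301 CPM there and to between 82.1 and 165 CPM in the other 5 libraries. The part of fibroblast RNA in the Pmp22 level was not tested.

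Prx encodes periaxin, a scaffold that ties the outer Schwann cell membrane to the surrounding basal lamina. The 3 WT libraries were close together, with 0.608, 0.467 and 0.527 CPM, whereas the KO libraries held the lowest and the highest values, 0.242, 0.489 and 1.20 CPM. In counts these were 6, 12 and 32 reads in KO against 15, 15 and 16 in WT. The log2 fold change was 0.28 (95% interval -0.87 to 1.44, adjusted p = 0.893 in edgeR's quasi-likelihood test) and turned to -0.53 without KO replicate 3. Periaxin's exons share 321 bases, 5.67% of their length, with Gm15541 on the opposite strand, which had 0 to 6 counts per library.

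Mag encodes myelin-associated glycoprotein, an adhesion protein on the Schwann cell membrane that faces the axon. It had 1, 3 and 2 counts in WT and 1, 3 and 11 in KO, so 5 of the 6 libraries were at or under 3 counts. Ncmap encodes a membrane protein of non-compact myelin, and it had 2, 3 and 11 counts in WT and 2, 2 and 11 in KO. Its highest libraries were replicate 3 of either genotype, at 0.362 CPM in WT and 0.411 in KO, and the other 4 were at or under 3 counts.

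S100b encodes a calcium-binding protein used to stain Schwann cells, and it had 9, 5 and 4 counts in WT and 4, 2 and 14 in KO. Sox10 had 6, 2 and 4 counts in WT and 3, 1 and 7 in KO. For both genes KO replicate 3 was highest, WT replicate 1 second and KO replicate 2 lowest. In the fit without a filter, edgeR's quasi-likelihood test gave unadjusted p-values of 0.137 for Mag, 0.698 for S100b, 0.994 for Sox10 and 0.908 for Ncmap, with adjusted p-values of 0.724, 0.917, 0.997 and 0.980. At these low counts no difference between the genotypes was detected, and how large a difference could have been seen was not tested.

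The counts of these 4 genes together were 18, 13 and 21 in WT and 10, 8 and 43 in KO. KO replicate 3 had 43 counts with an exact Poisson 95% interval of 31.1 to 57.9, and WT replicate 3, the next highest, had 21 with an interval of 13.0 to 32.1. These intervals cover counting error only and not the spread between animals. They also take each read as an independent molecule, which was not tested. The highest library was thus of the KO genotype, and the 2 lowest were KO as well.

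Gpr17 encodes a G protein-coupled receptor. Its level was 1.30, 0.654 and 1.28 CPM in WT and 2.22, 2.24 and 2.24 CPM in KO, from 32, 21 and 39 counts and from 55, 55 and 60 counts. Every KO library was above every WT library, with means of 1.08 ± 0.368 CPM in WT and 2.23 ± 0.0162 in KO (SD, n = 3). The log2 fold change was 1.06 (standard error 0.30, 95% interval 0.40 to 1.71), a fold of 2.08, with an unadjusted p of 0.00419 and an adjusted p of 0.301 in edgeR's quasi-likelihood test. Gpr17 thus passed the study's thresholds and failed the correction for multiple tests. The exact permutation test, two-sided, gave p = 0.1, the smallest that 3 libraries against 3 allow. The 3 KO counts spanned 55 to 60, less than the counting error of 55 reads alone (exact Poisson 95% interval 41.4 to 71.6).

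Of the 8 genes, 4 were tested and 1 of these passed the thresholds. Over all 15623 tested genes, 5.35% did so in either direction and 2.21% in the direction of higher in KO. Gpr17 was likewise the 1 gene of the 8, and of the 4 tested, with every KO library above every WT library. This held for 7.53% of all tested genes. Among the 4 tested genes, 3 had a log2 fold change above 0 and 1 below, and the median was 0.34, beside -0.0042 over all tested genes. Without KO replicate 3 the median of the 4 was -0.13.

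**Figure D2:**
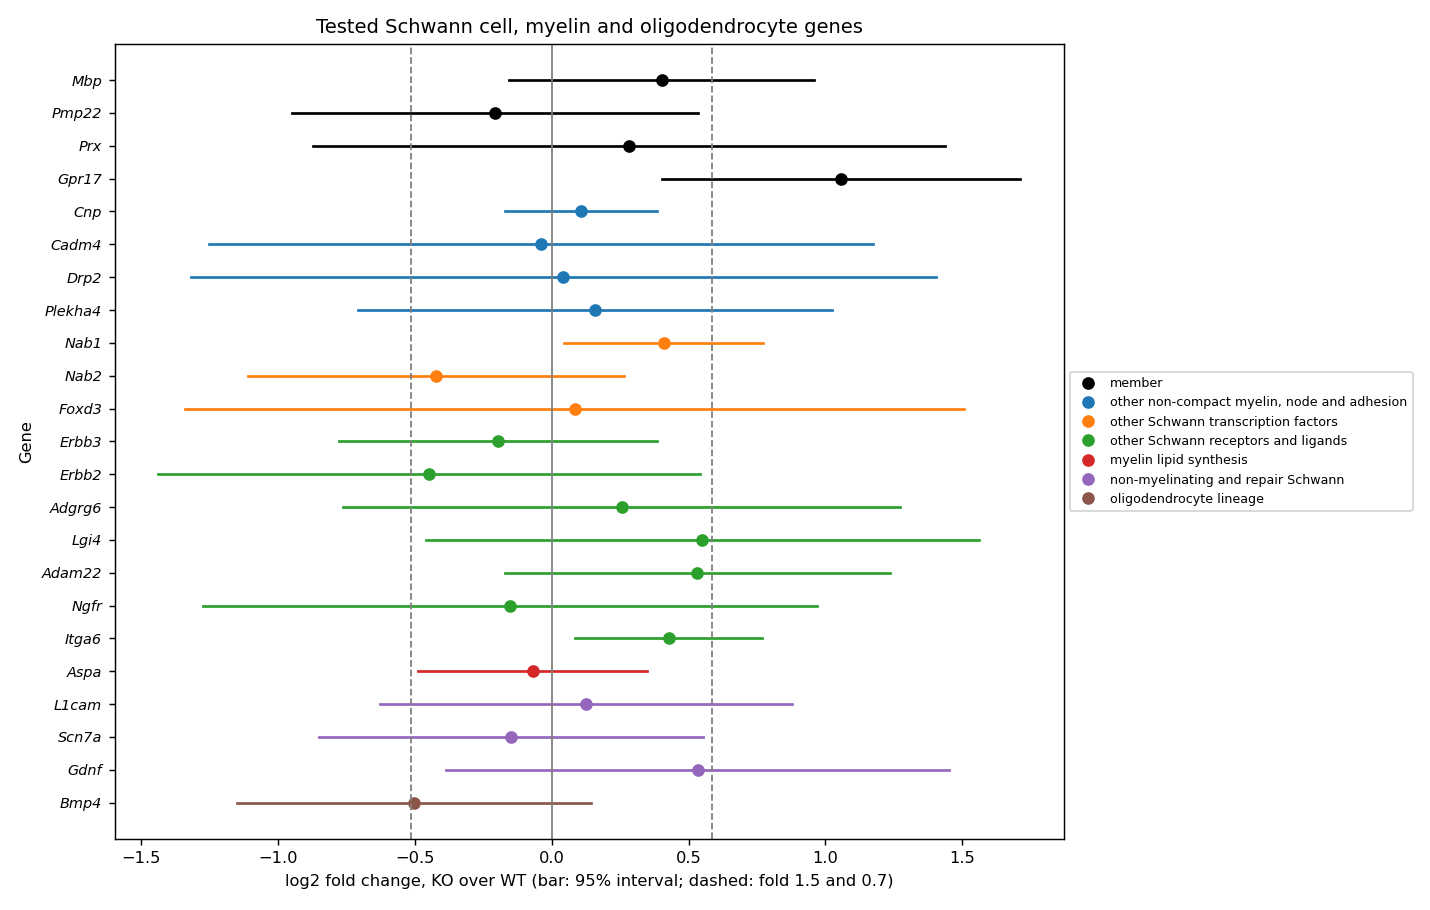
Log2 fold change of KO over WT (horizontal axis) for the tested Schwann cell and myelin genes (black) and the tested genes of 6 related lists (colors); bars are 95% intervals from edgeR and dashed lines mark folds of 1.5 and 0.7. Among the black points only Gpr17, at 1.06, has an interval that stays above 0, and no colored gene passes both thresholds.

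Gpr17 lies within the span of Lims2 on chromosome 18, on the opposite strand (Gpr17, ENSMUSG00000052229, from 32076050 to 32082689, and Lims2 from 32055343 to 32091672, in the positions of the deposited table, for which the labels name GRCm39). Lims2 encodes PINCH2, an adaptor of integrin adhesions. The 2 genes share 188 exon bases, 3.62% of the exon length of Gpr17. Lims2 had 5.84, 3.64 and 3.89 CPM in WT and 6.24, 7.66 and 7.33 CPM in KO. As for Gpr17, every KO library was above every WT library, and the log2 fold change was 0.67 (standard error 0.20, unadjusted p = 0.00518 and adjusted p = 0.316 in edgeR's quasi-likelihood test). The counts of Gpr17 were 22.2%, 17.9% and 33.1% of those of Lims2 in WT and 35.5%, 29.3% and 30.6% in KO. These ratios overlapped, with a log2 difference of 0.42 (exact permutation test, two-sided, p = 0.3). How the counting used strand is not given in the sources used here, and without strand the reads of the shared stretch, or of introns of Lims2 that cover Gpr17 exons, cannot be told apart from those of Gpr17.

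**Figure D3:**
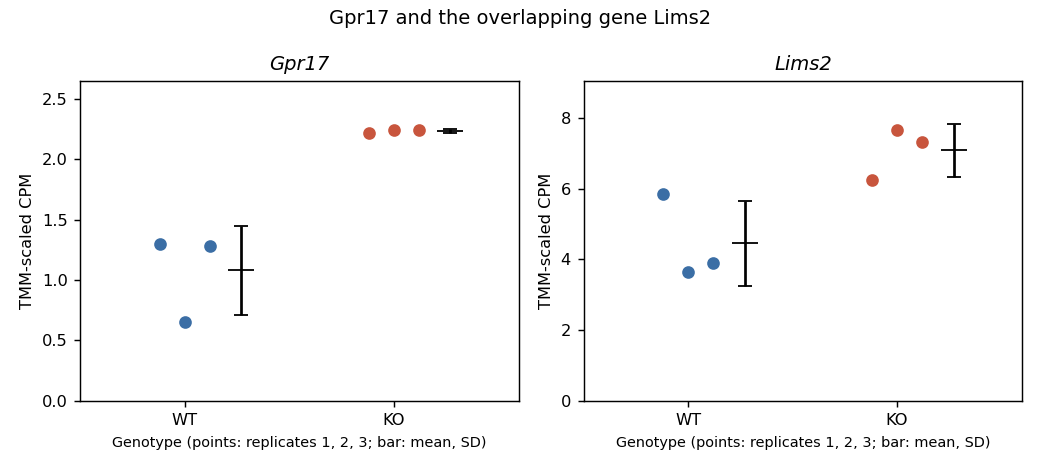
TMM-scaled CPM (vertical axis) of Gpr17 and of Lims2, the gene on the opposite strand whose span holds it, in WT (blue) and KO (red); points are the 3 libraries and the black bar is the mean with its SD. For both genes the 3 KO points lie above the 3 WT points.

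In the same positions Pmp22 (ENSMUSG00000018217) lies on chromosome 11 from 63019808 to 63050373 and Prx (ENSMUSG00000053198) on chromosome 7 from 27196813 to 27219639, both on the plus strand. Mag (ENSMUSG00000036634) lies on chromosome 7 from 30598601 to 30614298 on the minus strand, and S100b (ENSMUSG00000033208) on chromosome 10 from 76089687 to 76096993 on the plus strand. Sox10 (ENSMUSG00000033006) lies on chromosome 15 from 79039108 to 79049440 and Ncmap (ENSMUSG00000043924) on chromosome 4 from 135096887 to 135125538, both on the minus strand. Mbp (ENSMUSG00000041607) lies on chromosome 18 from 82493271 to 82603762 on the plus strand. The spans of Mbp, S100b and Ncmap overlap those of Rpl21-ps8, Dip2a and Gm12991 on the opposite strand without sharing an exon base.

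Read as an index of nerve content, the 8 genes were averaged per library as log2 CPM (prior count 1) relative to the mean of each gene. The index was -0.0072, -0.48 and 0.11 in WT and -0.30, -0.29 and 0.97 in KO. KO replicate 3 stood highest, and the other KO libraries lay inside the WT range. The difference of KO minus WT was 0.25, beside a within-group SD of 0.563, so it was smaller than the spread between libraries. It was 0.13 without Gpr17, -0.17 without KO replicate 3 and -0.35 without both. Mag had the largest deviation in KO replicate 3, at 1.75 on the log2 scale, followed by Ncmap with 1.29 and S100b with 1.25. All 3 were under the filter, with 11, 11 and 14 counts in that library. The index of the 4 tested genes alone, chosen after seeing the data, was -0.051, -0.58 and 0.13 in WT. In KO it was -0.18, 0.027 and 0.65. Across all tested genes, KO replicate 3 was the highest library for 12.9%, beside 7 of these 8 genes and 3 of the 4 that were tested. Both counts include Gpr17, whose levels in KO replicates 2 and 3 were nearly tied, at 2.242 and 2.244 CPM.

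**Figure D4:**
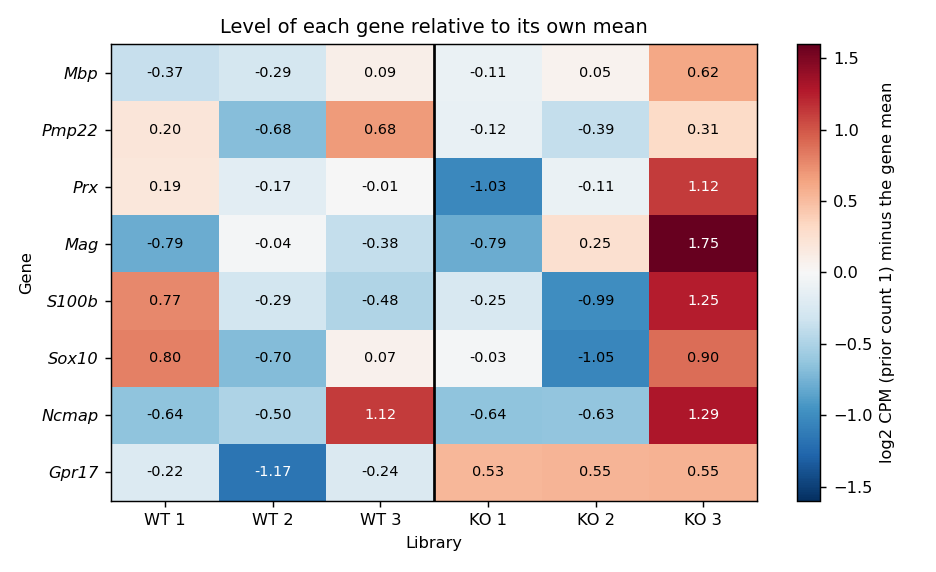
Log2 CPM (prior count 1) of each Schwann cell and myelin gene (rows) in each library (columns) minus the mean of the gene over the 6 libraries; red is above and blue below that mean. The column of KO replicate 3 is above the mean for all 8 genes, from 0.31 for Pmp22 to 1.75 for Mag, and only the row of Gpr17 splits by genotype.

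Over the 6 libraries, Pearson's r of log2 CPM between pairs of these genes ranged from 0.063 to 0.903, and 12 of the 28 pairs were over 0.5. S100b and Sox10 had the highest r. The pairs with Gpr17 ranged from 0.073 to 0.584. All pairs share the same libraries and KO replicate 3 weighs in each, so these values are a description. Among 12802 other genes with a mean of at least 1 CPM, the 5 whose log2 CPM followed the index most closely were Crls1 (r = 0.973), Rpusd1 (0.959), Ypel2 (0.957), Klhl25 (0.956) and Hnmt (0.952), over 6 libraries. Crls1 makes the mitochondrial lipid cardiolipin and Hnmt inactivates histamine. Their levels differed little where r was highest, with 8.34 to 9.69 CPM for Crls1 and 1.03 to 1.31 for Rpusd1. No other of the 12802 genes had an r over 0.95, and none of the 5 belongs to the myelin or Schwann cell lists below. The 5 are the extremes of many comparisons over 6 libraries, and how many unrelated genes would reach such an r was not tested.

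Other genes of myelin and of the Schwann and oligodendrocyte lineages were read from lists set by function. In 7 lists with 49 genes, 21 were tested, 13 of them with a log2 fold change above 0 and 8 below, and none passed the study's thresholds, with a median of 0.11. Of all tested genes, 50.6% had a log2 fold change below 0. Of the 21, 2 had an unadjusted p under 0.05 in edgeR's quasi-likelihood test, as did 9.89% of all tested genes, and DESeq2 too put none past both thresholds. KO replicate 3 was the highest library for 10 of the 41 genes with a count, and WT replicate 3 for 10 as well. Of all 15623 tested genes, KO replicate 3 was highest for 2013 and WT replicate 3 for 2539.

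Among the other compact myelin genes, Mal and Pllp encode small membrane proteins of myelin and were under the filter. Mal had 10, 4 and 5 counts in WT and 6, 4 and 13 in KO, and Pllp had 3, 5 and 7 counts in WT and 7, 8 and 12 in KO. Both were highest in KO replicate 3. For Pllp every KO library was also above every WT library, as it was for 7.53% of the tested genes. Its levels were 0.122, 0.156 and 0.231 CPM in WT and 0.282, 0.326 and 0.449 in KO. In the fit without a filter its adjusted p was 0.724 in edgeR's quasi-likelihood test.

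In the non-compact myelin, node and adhesion list, 4 of 8 genes were tested and none passed. Cnp, an enzyme of myelin cytoplasm that other cells also transcribe, had 15.2 to 19.1 CPM in the 6 libraries and a log2 fold change of 0.11, and Drp2, a partner of periaxin, had 0.042. Of the 7 other transcription factors, Nab1 and Nab2, which bind EGR proteins, were the most abundant, with log2 fold changes of 0.41 (unadjusted p = 0.0301 and adjusted p = 0.461 in edgeR's quasi-likelihood test) and -0.42. The receptors and ligands included Itga6, the laminin-binding integrin subunit of Schwann cells and of endothelium, at 0.43 (unadjusted p = 0.0184 and adjusted p = 0.416 in edgeR's quasi-likelihood test), and Erbb3, the neuregulin receptor, at -0.20. For both Nab1 and Itga6 every KO library was above every WT library, but neither reached a fold of 1.5. For myelin lipids, Aspa was the 1 gene of 4 tested, with -0.070, and Fa2h, next in level, was under the filter at 0.0968 CPM in WT and 0.0892 in KO. Scn7a and Gdnf led the list of non-myelinating and repair Schwann cells, with log2 fold changes of -0.15 and 0.53.

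In the list of the oligodendrocyte lineage, 6 of 9 genes, Mog, Mobp, Opalin, Olig2, Hapln2 and Ermn, had 0 counts in all 6 libraries. The other 3 include Bmp4 and Sox8, which many tissues transcribe, and Bmp4 had a log2 fold change of -0.50 (adjusted p = 0.617, edgeR's quasi-likelihood test). Gpr17 was counted in the same 6 libraries, and which cells its reads came from was not tested.

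Neighboring tissues of the nerve gave low counts too. Of 10 axonal transcripts, 4 (Nefl, Gap43, Chat and Slc5a7) had no count in any library, and the 2 tested, Uchl1 and Stmn2, had log2 fold changes of -0.069 and 0.27. What such counts say about the amount of nerve in a sample was not tested. Of 5 perineurial genes, which mark the sheath around nerve bundles, 3 were tested and none passed, with Slc2a1 at -0.066 and Itgb4 at 0.27. Of those 5 genes, 3 were highest in KO replicate 3. On the muscle side of the synapse, 9 of 11 neuromuscular junction genes had a log2 fold change below 0, and the acetylcholine receptor subunits Chrna1 (-1.10) and Chrng (-2.52) passed the study's thresholds. Over all tested genes these shares were 50.6% below 0 and 3.14% past the thresholds and lower in KO. The adjusted p-values of Chrna1 and Chrng were 0.469 and 0.356 in edgeR's quasi-likelihood test. For none of these 11 genes was KO replicate 3 the highest library.

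The other cell types were read beside the index. The summed CPM of 8 slow muscle fiber genes (led by Atp2a2 and Myl3) was 43.4 in KO replicate 3 and 43.8 to 100.5 in the other libraries. The endothelial list, led by Cdh5 and Pecam1, summed to 101.9 CPM there and to between 67.9 and 119.8 elsewhere. The adipocyte list had its sum almost wholly from Car3, Cd36 and Plin4, which muscle also transcribes, and its defining genes Adipoq, Plin1, Cidec and Lep had 0 to 14 counts per library, with 1 or 2 in KO replicate 3. Leukocyte genes summed to 15.0 CPM there, the lowest of the 6 libraries, with Csf1r lower in KO (log2 fold change -0.69) and Cd3e higher (1.16), both past the study's thresholds. The smooth muscle and pericyte list summed to 219.8 CPM there and to between 151.1 and 287.8 elsewhere, with Myh11 (0.83) and Rgs5 (0.61) past the thresholds. This list and the leukocyte list each had 7 tested genes. Of all tested genes, 2.21% passed higher in KO and 3.14% lower. The adjusted p-values in edgeR's quasi-likelihood test were 0.470 for Csf1r, 0.316 for Cd3e, 0.330 for Myh11 and 0.299 for Rgs5. By their sums, in none of these lists, the adipocyte list included, nor in the fibroblast list, was KO replicate 3 the highest library.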

How the data were processed

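RNA-seq libraries came from TA muscle, 3 per genotype. Alignment was with Hisat2 and counting per gene with featureCounts, and the authors deposited raw counts for 55416 genes, not normalized, with exon positions and lengths. GRCm38 is named in the methods and GRCm39 in the labels, and positions are those of the deposited table. Symbols were matched by Ensembl identifier for 52083 genes. Groups came from the labels, and the WT column without a number was taken as replicate 1 because the others name 2 and 3. The paper gives 3 mice per genotype, so p-values measure the spread between mice.

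Genes that passed filterByExpr were scaled by TMM (factors 0.893 to 1.20) and compared with the quasi-likelihood test of edgeR (version 4.0.16, R 4.3.3) with robust estimation, with Benjamini-Hochberg adjustment over 15623 genes. The steps were tested on simulated data. Replicates of a genotype differed by more than sampling noise (chi-square per degree of freedom 21.0 to 79.3). Depth, at 25351976 to 29111213 counts, limits genes near the floor of 3 counts. The genes and lists were chosen with earlier results of these data known. The genes named are the 8, Selenow, genes overlapping them, the 5 most like the index, and of each list those past the thresholds or else its 2 most abundant; others named were chosen after their values were seen. Some genes that this rule names are not reported here. Alternatives were DESeq2 (version 1.42.0), its size factors in edgeR, no filter, a minimum of 10 counts per library, robust estimation off, no mitochondrially encoded genes, a replicate block, other index settings and leaving out each library; the index of tested genes only and the median without Gpr17 were chosen after seeing the data.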

Additional observations from a re-analysis of the deposited data

How the results depend on the processing

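Gpr17 stayed past the study's thresholds in 13 of 13 alternatives, with log2 fold changes of 0.79 to 1.21 and adjusted p-values of 0.0757 to 0.521 (edgeR, or DESeq2 where named). Of 114 alternative values over 9 results, 106 were labeled as unchanged. For a single gene this meant the same direction and side of the threshold, and for a count of genes a value within 1.5-fold. For the index and the median it meant a move of less than the within-group SD of 0.563. This SD is larger than both values (0.25 and 0.34). The 106 therefore include the index of -0.17 and the median of -0.13 without KO replicate 3. Without a filter, 1780 genes passed the thresholds in place of 836. Of the 49 other myelin and Schwann cell genes, 1 passed without a filter and 1 with the replicate block, and leaving out 1 library gave 0 to 1, with 1 gene passing without WT replicate 1, WT replicate 2 (Nab2) or KO replicate 3 (Adam22). The causes were not tested. The log2 fold change of Pmp22 ranged from -0.50 to 0.15 when 1 library was left out and turned to 0.15 without WT replicate 3. That of Prx ranged from -0.53 to 0.67 and turned to -0.53 without KO replicate 3. The index difference ranged from -0.17 to 0.47, and without TMM factors it was 0.045. Leaving out the TMM factors moved the median of all tested genes by -0.24 on the log2 scale, and Gpr17 and Lims2 kept a KO minus WT difference above 0 (0.85 and 0.45). The replicate numbers showed no sign of pairing the animals: same-numbered libraries had correlations of 0.060, 0.044 and -0.074, and other-numbered ones -0.14 to 0.093. So few libraries cannot exclude a pairing. With the replicate block the median over the 4 tested genes was 0.24. Low counts of Mag, S100b, Sox10 and Ncmap limit what can be seen for them.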
